A study of Mus musculus with 9 samples.

Results

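Imprinted genes that act on growth, 10 of the 52550 genes in the table, were followed through 9 mouse RNA sequencing libraries. The 10 genes are H19, Igf2, Igf2r, Grb10, Cdkn1c, Mest, Plagl1, Peg3, Meg3 and Dlk1, and all 10 were found in the table by their Ensembl identifiers. The set was chosen by the FPKM values of H19, which had been seen to vary between libraries, and filled with imprinted genes of related function, so the values of H19 are given as a description, with no test. The libraries form 3 groups of 3, which the labels call LY500307+PD-1, PD-1 and Control. LY500307 activates estrogen receptor beta. PD-1 is an inhibitory receptor of T cells. The labels give no dose, time, host or genotype, do not say what agent the PD-1 treatment was, and name the same cell line, 4T1, for every group. 4T1 is a mammary carcinoma line of the mouse. Nothing says that the 3 libraries of a group had separate biological sources, so each p-value covers the spread among these libraries alone, and that spread may be technical.

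An imprinted gene is transcribed mainly from the copy inherited from one parent, which is set by DNA methylation at control regions in the germ line. Many such genes act on fetal and placental growth, and most fall to low levels after birth, while some are expressed again in tumours. H19, a long noncoding RNA from the maternal copy, lies next to Igf2, an insulin-like growth factor from the paternal copy, and the factor CTCF bound between them on the maternal copy keeps Igf2 silent there. In mouse, Igf2r clears the Igf2 protein and Grb10 restrains insulin and IGF receptors. The values here are summed over both copies, so they carry no information on which copy was read.

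The unit of the table was read from its values as FPKM, fragments scaled to transcript length and library depth, and levels can be compared between genes because they are per length. The steps between low values gave a depth of 8250000 to 8700000 fragments per library, or 2 times that if the smallest step stands for less than a whole fragment. At that depth 1 fragment on a transcript of 1 kb is worth 0.115 to 0.121 FPKM. Between 20701 and 21480 rows were above 0 in a library. The epithelial markers expected of 4T1 were present in every library, with Krt8 at 477 to 1250 FPKM, Krt18 at 621 to 1600 FPKM and Epcam at 98.5 to 281 FPKM. Markers of other cell types were present too, among them all 8 macrophage and all 12 fibroblast markers in all 9 libraries, so no value can be assigned to 4T1 cells alone. In such mixed RNA, fewer cells of a type and less RNA per cell cannot be told apart. LY500307+PD-1 replicate 2 stood apart in fat, muscle and epithelial genes. Its 7 adipocyte markers summed to 47.6 FPKM, against 2.28 to 7.74 FPKM in the other 8 libraries, and its 12 skeletal muscle markers to 184 FPKM, against 35.3 to 66.5 FPKM. Its 8 epithelial markers summed to 3940 FPKM, against 1440 to 2390 FPKM. The sums of fibroblast and proliferation markers were also highest in this library, and that of neutrophil markers was lowest.

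H19, Igf2 and Mest each host a microRNA, shown here because the table has a row for the hairpin beside that of its host. The Mir675 hairpin (chr7:142577064-142577147, minus strand, GRCm38) lies within an exon of H19. The Mir483 hairpin (chr7:142654924-142654996, minus strand) lies in an intron of Igf2, and the Mir335 hairpin (chr6:30741299-30741396, plus strand) in an intron of Mest. Mature sequences are those of RefSeq on GRCm38.p6, written 5′ to 3′ with the seed, bases 2 to 8, in capitals.
mmu-miR-675-5p: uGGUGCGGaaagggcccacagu
mmu-miR-675-3p: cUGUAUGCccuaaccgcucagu
mmu-miR-483-5p: aAGACGGGagaagagaagggag
mmu-miR-483-3p: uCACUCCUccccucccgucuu
mmu-miR-335-5p: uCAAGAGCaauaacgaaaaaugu
mmu-miR-335-3p: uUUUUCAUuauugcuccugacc
The 6 seeds all differ from one another. The Mir675 row held 0.25 to 0.415 FPKM, the Mir483 row was listed at 0 in all 9 libraries, and the Mir335 row was above 0 in 1 library, at 0.618 FPKM. These values come from libraries of total RNA and are not levels of the mature microRNAs.

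H19 (ENSMUSG00000000031.15, chromosome 7, 142575529 to 142578143, minus strand, GRCm38 as for all positions given) had the widest spread of the 5 members that passed the filter on low values. It stood at 8.32, 11.5 and 7.93 FPKM in LY500307+PD-1 libraries, 14.2, 15.4 and 3.04 FPKM in PD-1 libraries and 49.7, 5.79 and 2.22 FPKM in Control libraries. The highest and the lowest library were both Control, 22.4-fold apart, and the other groups lay between them, so all 3 groups overlap. The mean was 9.26 ± 1.98 FPKM in LY500307+PD-1, 10.9 ± 6.82 FPKM in PD-1 and 19.2 ± 26.5 FPKM in Control (SD, n = 3 each), and their differences are smaller than the spread within Control. The SD of log2(FPKM + 1) over the 9 libraries was 1.18 for H19, above that of 99.5% of the 13990 genes tested, for which the median SD was 0.21. H19 was chosen because it varied between libraries, so a high rank follows from that choice. The direction of the group difference depended on single libraries, in Control and in the other groups. The log2 fold change of LY500307+PD-1 against Control was -0.03 with all libraries, 1.12 without Control replicate 1 and -0.87 without Control replicate 3. It was 0.03, -0.18 and 0.06 without LY500307+PD-1 replicates 1, 2 and 3, in that order. For PD-1 against Control it was -0.05 with all libraries, 1.10 without Control replicate 1 and -0.89 without Control replicate 3. It was -0.35, -0.40 and 0.61 without PD-1 replicates 1, 2 and 3, in that order. For LY500307+PD-1 against PD-1 it was 0.02 with all libraries and ran from -0.64 without PD-1 replicate 3 to 0.37 without PD-1 replicate 2.

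Of the rows that overlap H19, those on the opposite strand shared its highest library, and the Mir675 row is too low to compare. Gm27786 and Gm27483 are short gene models on the opposite strand that share 70 and 71 bases with H19 exons. Gm27786 held 16.5, 15.7 and 16.0 FPKM in LY500307+PD-1, 35.5, 32.9 and 7.82 FPKM in PD-1 and 165, 18.1 and 11.2 FPKM in Control. Gm27483 held 14.5, 7.65 and 4.12 FPKM in LY500307+PD-1, 16.1, 14.7 and 2.42 FPKM in PD-1 and 67.8, 9.36 and 3.76 FPKM in Control. Both were highest in Control replicate 1, as H19 was, and lowest in PD-1 replicate 3, where H19 was second lowest. Whether strand was used in counting is not given in the sources used here, so fragments of H19 and of these models cannot be told apart. The Mir675 row, whose 84 bases all lie within H19, stood at 0.376, 0.38 and 0.372 FPKM in LY500307+PD-1, 0.415, 0.312 and 0.25 FPKM in PD-1 and 0.39, 0.408 and 0.32 FPKM in Control. Its level in Control replicate 1 was inside the range of the other 8 libraries. At either depth named above, 1 whole fragment on 84 bases would be worth more FPKM than any of these values. The Mir675 row thus stands for less than 1 fragment per library, and whether it followed H19 cannot be read from it.

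**Figure D1:**
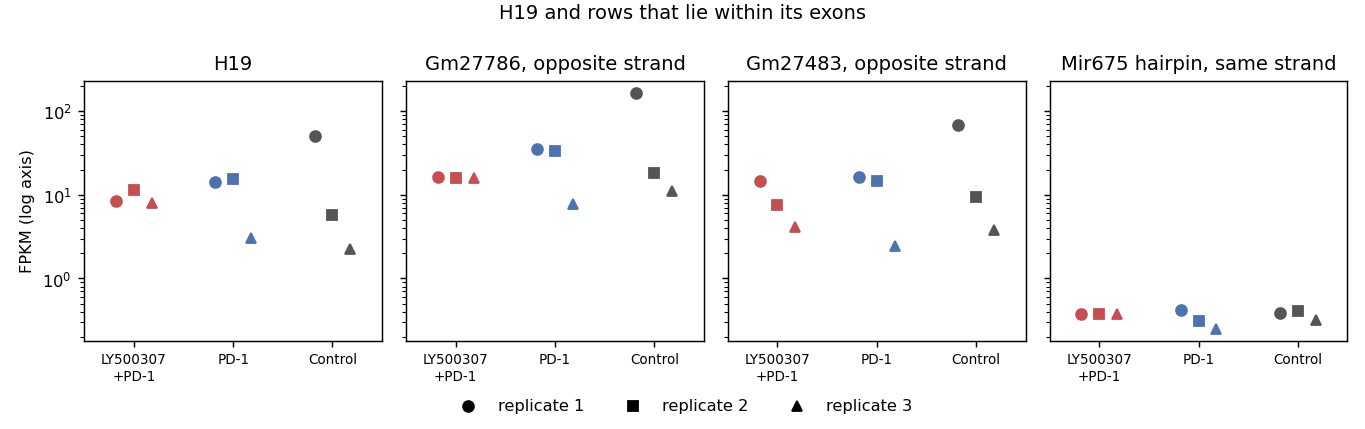
FPKM on a log axis for H19 and for 3 gene models within its exons, with 1 point per library and the replicate number as the symbol. Control replicate 1 is highest for H19 (49.7 FPKM) and for both models on the opposite strand (165 and 67.8 FPKM). The Mir675 row lies between 0.25 and 0.415 FPKM, less than 1 whole fragment on so short a model, so its pattern cannot be compared.

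The 5 genes listed next had the pattern over the 9 libraries most like that of H19, by Pearson's r of log2(FPKM + 1) among 11474 named genes whose mean reached 1 FPKM. They were Piezo2, a mechanically gated ion channel (r = 0.956), Sema4c, a semaphorin (0.955), Arl4c, a small GTPase (0.944), Slco2a1, a prostaglandin transporter (0.942), and B4galnt1, an enzyme of ganglioside synthesis (0.941). Each was highest in Control replicate 1. Sema4c spanned 5.62 to 46.4 FPKM and Piezo2 0.42 to 2.61 FPKM. Without Control replicate 1, r was between 0.868 and 0.927 for the 5 genes. These are descriptions of the closest genes among many in 9 libraries, with no test.

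Igf2, the growth factor beside H19 (ENSMUSG00000048583.16, chromosome 7, 142650766 to 142666816, minus strand), was near the floor of the table. It held 0.22, 0.142 and 0.114 FPKM in LY500307+PD-1, 0.105, 0 and 0.0607 FPKM in PD-1 and 0, 0.104 and 0.224 FPKM in Control. Every LY500307+PD-1 library was above every PD-1 library, while both overlapped Control. The closest pair, 0.114 and 0.105 FPKM, lay less than 1 fragment apart on the 5723 exon bases of Igf2, so the order of these groups carries little weight. Of all genes tested, 7.6% had groups that do not overlap in that comparison. Control replicate 1, the library with the most H19, was 1 of the 2 listed at 0 for Igf2. Igf2 did not reach 1 FPKM in any library and was not tested. The antisense gene Igf2os shares 98 exon bases with Igf2 and held at most 0.0223 FPKM. Gm49394, a gene model on the same strand, shares 3596 exon bases with Igf2 and has no values here. The genes with a pattern most like Igf2 were Bcl3, an IkB family protein (r = 0.917), Apba3 (0.913), Gde1 (0.912), Trappc3 (0.883) and Nudt18 (0.875), and at levels so near 0 such likeness is no finding.

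Igf2r, the receptor that takes up Igf2 and lysosomal enzymes (ENSMUSG00000023830.13, chromosome 17, 12682406 to 12769664, minus strand), was above 5 FPKM in every library. It stood at 12.8, 10.3 and 8.92 FPKM in LY500307+PD-1, 8.82, 11.9 and 6.0 FPKM in PD-1 and 9.45, 8.15 and 5.15 FPKM in Control. The groups overlap, with the highest library in LY500307+PD-1 and the lowest in Control. In limma's test the log2 fold change was 0.47 (SE 0.26, 95% interval -0.13 to 1.06, adjusted p = 1) for LY500307+PD-1 against Control. It was 0.27 (SE 0.26, interval -0.33 to 0.87, adjusted p = 1) for LY500307+PD-1 against PD-1 and 0.20 (SE 0.26, interval -0.40 to 0.80, adjusted p = 1) for PD-1 against Control. The antisense RNA Airn, which silences the paternal copy of Igf2r in mouse, overlaps Igf2r with no shared exon base and held 0.376 to 0.939 FPKM.

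Grb10, an adaptor that inhibits insulin and IGF receptors (ENSMUSG00000020176.17, chromosome 11, 11930508 to 12038683, minus strand), was lower than Igf2r in every library. It held 0.596, 0.901 and 0.468 FPKM in LY500307+PD-1, 0.875, 0.682 and 0.821 FPKM in PD-1 and 1.33, 0.951 and 0.782 FPKM in Control. It averaged 0.655 ± 0.222 FPKM in LY500307+PD-1, 0.793 ± 0.0997 FPKM in PD-1 and 1.02 ± 0.281 FPKM in Control (SD, n = 3 each), and the groups overlap. Only Control replicate 1 passed 1 FPKM, so Grb10 was not tested.

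Cdkn1c, an inhibitor of cyclin-dependent kinases also called p57 (ENSMUSG00000037664.13, chromosome 7, 143458339 to 143461050, minus strand), varied most among Control libraries. It held 0.587, 1.03 and 0.814 FPKM in LY500307+PD-1, 0.497, 0.62 and 0.723 FPKM in PD-1 and 0.232, 1.77 and 1.11 FPKM in Control. The lowest of all 9 values was in Control replicate 1, where H19 was highest, and the highest was in Control replicate 2. The log2 fold changes were 0.16 (SE 0.28) for LY500307+PD-1 against PD-1, -0.10 (SE 0.28) for LY500307+PD-1 against Control and -0.26 (SE 0.28) for PD-1 against Control, each with a limma adjusted p of 1. Without Control replicate 1 the values against Control were -0.42 for LY500307+PD-1 and -0.58 for PD-1. The value for LY500307+PD-1 was -0.01 without LY500307+PD-1 replicate 1, and that for PD-1 was -0.21 without PD-1 replicate 1. Cdkn1c fell below the filter when some other libraries were left out. Gm44732 shares 625 exon bases with Cdkn1c on the opposite strand and held 0.0929 to 1.73 FPKM, so part of the fragments may belong to either.

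Mest, a paternally expressed protein of the hydrolase fold also called Peg1 (ENSMUSG00000051855.15, chromosome 6, 30723547 to 30748465, plus strand), showed the smallest p of the tested members. It stood at 3.75, 8.18 and 3.20 FPKM in LY500307+PD-1, 7.85, 6.07 and 8.77 FPKM in PD-1 and 11.7, 6.21 and 7.92 FPKM in Control. LY500307+PD-1 replicates 1 and 3 were below all other libraries, and LY500307+PD-1 replicate 2 was within the range of the other groups. Mest averaged 5.04 ± 2.73 FPKM in LY500307+PD-1, 7.56 ± 1.37 FPKM in PD-1 and 8.59 ± 2.78 FPKM in Control (SD, n = 3 each). The log2 fold change of LY500307+PD-1 against Control was -0.72 (SE 0.31, 95% interval -1.42 to -0.01), with an unadjusted p of 0.0471 and an adjusted p of 1 in limma's test, lower in 2 of 3 libraries than every Control library. It was -0.58 (SE 0.31, interval -1.29 to 0.13, adjusted p = 1) for LY500307+PD-1 against PD-1 and -0.14 (SE 0.31, interval -0.84 to 0.57, adjusted p = 1) for PD-1 against Control. Without LY500307+PD-1 replicate 2 the values were -1.06 against Control and -0.93 against PD-1. Without LY500307+PD-1 replicate 3 they were nearer to no change, at -0.50 against Control and -0.36 against PD-1. In mouse fat tissue Mest is known to rise as fat cells enlarge, and the adipocyte markers summed to 2.63, 47.6 and 3.92 FPKM in LY500307+PD-1, 2.28 to 7.32 FPKM in PD-1 and 3.10 to 7.74 FPKM in Control. The part of fat cells in the level of Mest was not tested. Copg2, a coat protein gene on the opposite strand, shares 912 exon bases with Mest and held 10.4 to 13.6 FPKM.

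Plagl1 and Peg3 encode zinc finger proteins, and both were below the filter. Plagl1 (ENSMUSG00000019817.18, chromosome 10, 13060504 to 13131694) was listed at 0 in 5 libraries and reached at most 0.105 FPKM, in PD-1 replicate 3. Peg3 (ENSMUSG00000002265.16, chromosome 7, 6703892 to 6730431) held 0.352, 0.483 and 0.186 FPKM in LY500307+PD-1, 0.401, 0.242 and 0.636 FPKM in PD-1 and 0.443, 0.463 and 0.454 FPKM in Control. The Control libraries of Peg3 lay close together, and both other groups spread to either side of them.

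Dlk1 and Meg3 lie in one imprinted domain on chromosome 12, Dlk1 being a Notch-like transmembrane protein from the paternal copy and Meg3 a long noncoding RNA from the maternal copy. Dlk1 (ENSMUSG00000040856.17, 109452823 to 109463336) was listed at 0 in all 9 libraries. Meg3 (ENSMUSG00000021268.17, 109541001 to 109571726) held 0.883, 2.45 and 0.893 FPKM in LY500307+PD-1, 0.413, 1.97 and 1.62 FPKM in PD-1 and 1.84, 1.74 and 0.918 FPKM in Control. The groups overlap, with both the highest and the lowest library outside Control, and limma's adjusted p was 1 in all 3 comparisons, with log2 fold changes of 0.05, -0.09 and -0.15 (SE 0.34 each) for LY500307+PD-1 against PD-1, LY500307+PD-1 against Control and PD-1 against Control.

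Other maternally expressed noncoding RNA of the domain was low. Rian, downstream of Meg3, held 0.272, 0.635 and 0.224 FPKM in LY500307+PD-1, 0.105, 0.617 and 0.59 FPKM in PD-1 and 0.538, 0.442 and 0.219 FPKM in Control. It was highest and lowest in the same libraries as Meg3, LY500307+PD-1 replicate 2 and PD-1 replicate 1. The 12 fibroblast markers summed to 417, 807 and 442 FPKM in LY500307+PD-1, 297, 769 and 477 FPKM in PD-1 and 528, 591 and 497 FPKM in Control, again highest and lowest in those 2 libraries. Mirg, farther downstream, held 0.107, 0.195 and 0.125 FPKM in LY500307+PD-1, 0.177, 0.148 and 0.0995 FPKM in PD-1 and 0.0974, 0.0403 and 0.0183 FPKM in Control. It shared its highest library with Meg3 but not its lowest, and PD-1 replicate 1 was its second highest library. The Control libraries of Mirg were below all libraries of both other groups, the closest pair being 0.0995 FPKM in PD-1 and 0.0974 FPKM in Control. That pair lay less than 1 fragment apart on the 7292 exon bases of Mirg, so the order carries little weight. Of all genes tested, 7.94% had groups that do not overlap in LY500307+PD-1 against Control and 6.68% in PD-1 against Control. Mirg was below the filter and was not tested, and this order was picked out after its values were seen. The part of fibroblasts in the level of Meg3 was not tested. Gm26906 shares 1228 exon bases with Meg3 on the opposite strand and held 0.768 to 2.5 FPKM.

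**Figure D2:**
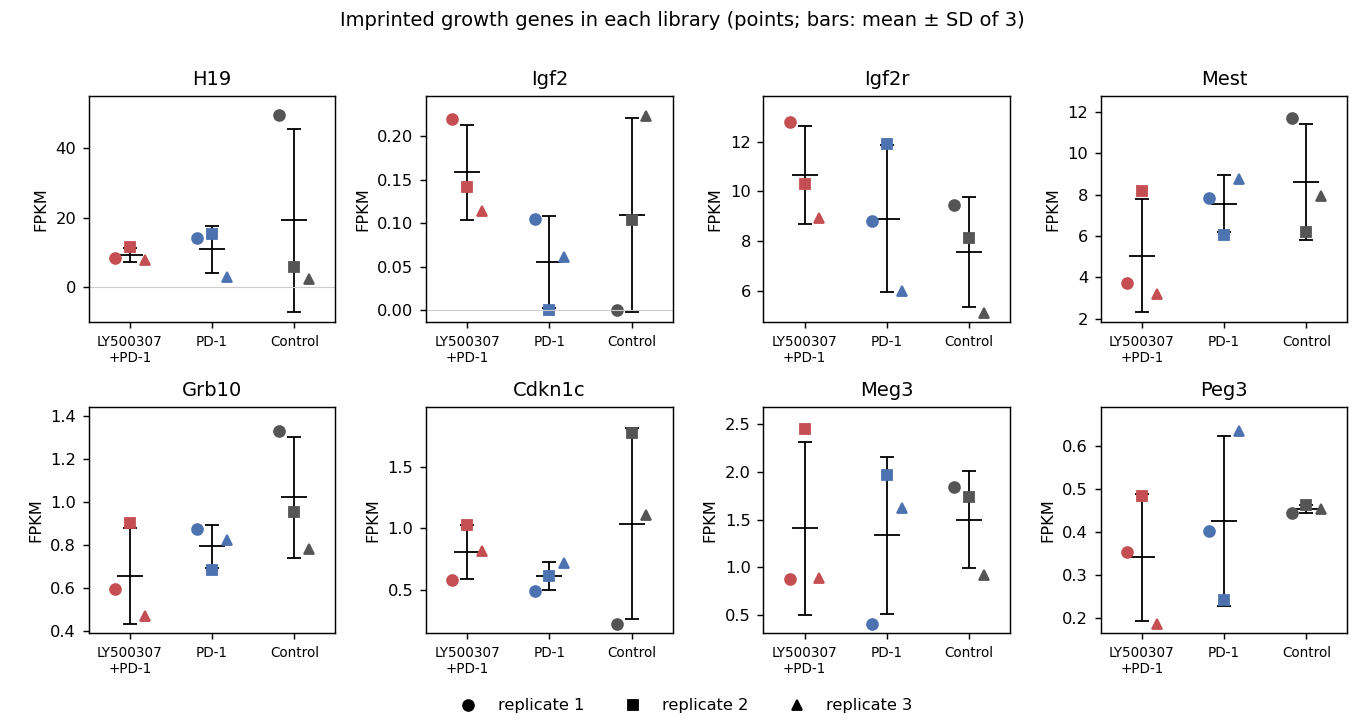
FPKM of 8 members by group, with 1 point per library and bars for the mean ± SD of 3 libraries, on a separate axis for each gene. H19 reaches 49.7 FPKM in Control replicate 1, Mest is at 3.75 and 3.20 FPKM in 2 LY500307+PD-1 libraries, and the groups overlap for every gene shown except Igf2 between LY500307+PD-1 and PD-1.

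Of the 10 members, 5, H19, Igf2r, Cdkn1c, Mest and Meg3, reached 1 FPKM in at least 3 libraries and entered the fit over all genes. The other 5 did not, and the filter admits a gene through any group in which it is high. Of the tested members, 0 had groups that do not overlap in LY500307+PD-1 against PD-1, where 7.6% of all 13990 genes tested did. The count was also 0 in LY500307+PD-1 against Control, where the share of all genes was 7.94%, and 0 in PD-1 against Control, where it was 6.68%. At a limma adjusted p under 0.05, 0 of 13990 genes (0%) passed in each comparison, and the smallest adjusted p was 0.911 for LY500307+PD-1 against PD-1, 0.386 for LY500307+PD-1 against Control and 0.231 for PD-1 against Control. Before adjustment, 398 genes (2.84%), 561 genes (4.01%) and 342 genes (2.44%) had a p under 0.05 in these comparisons, in that order. Of all genes, 49% were lower in LY500307+PD-1 against PD-1, 50.6% in LY500307+PD-1 against Control and 51.7% in PD-1 against Control. H19, whose values chose the set, is left out of the directions given next. Among the 4 other members, Mest alone was lower in LY500307+PD-1 against PD-1. In both comparisons against Control, Cdkn1c, Mest and Meg3 were lower and Igf2r was higher. None of the 4 passed the adjusted threshold. The 4 members with a test gave 1 unadjusted p under 0.05 in the 3 comparisons, that of Mest. The 2 comparisons against Control share the Control libraries, so their values are not independent.

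**Figure D3:**
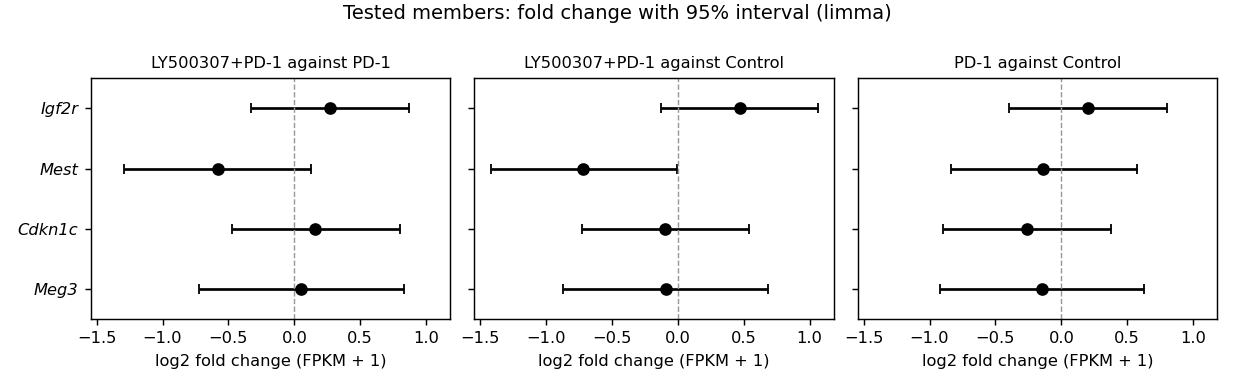
Log2 fold change of FPKM + 1 with 95% intervals from limma for the 4 members that were tested, in the 3 comparisons. Mest in LY500307+PD-1 against Control (-0.72, interval -1.42 to -0.01) is the 1 interval that leaves out 0.

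Pairs of the 5 members above the filter were compared over the 9 libraries, on log2(FPKM + 1). The 4 pairs with H19 are described with no test, and the other 6 pairs had exact permutation tests (two-sided). H19 and Igf2r had a Pearson's r of 0.64 and a Spearman's rho of 0.70. Control replicate 3, PD-1 replicate 3 and Control replicate 2 were the 3 lowest libraries for both genes. Without Control replicates 1 and 3, the libraries farthest from the median of H19, r was 0.73 over 7 libraries. H19 and Cdkn1c had an r of -0.67 and a rho of -0.73, and r was -0.35 without those 2 libraries, so the relation rests on them. H19 had an r of 0.22 with Meg3 and 0.26 with Mest. The 6 pairs without H19 had r between -0.38 (Igf2r and Mest) and 0.36 (Meg3 and Mest), and 0 passed, with an adjusted p of 0.671 for each r in the exact permutation tests. The 8 proliferation markers summed to 201, 309 and 169 FPKM in LY500307+PD-1, 156, 242 and 152 FPKM in PD-1 and 220, 190 and 131 FPKM in Control, lowest in the same 2 libraries as H19 and Igf2r, Control replicate 3 and PD-1 replicate 3. The 8 macrophage markers summed to 927 to 1620 FPKM in LY500307+PD-1, 1210 to 1640 FPKM in PD-1 and 823 to 2690 FPKM in Control, highest in Control replicate 3. The part of these cells in the relation was not tested.

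**Figure D4:**
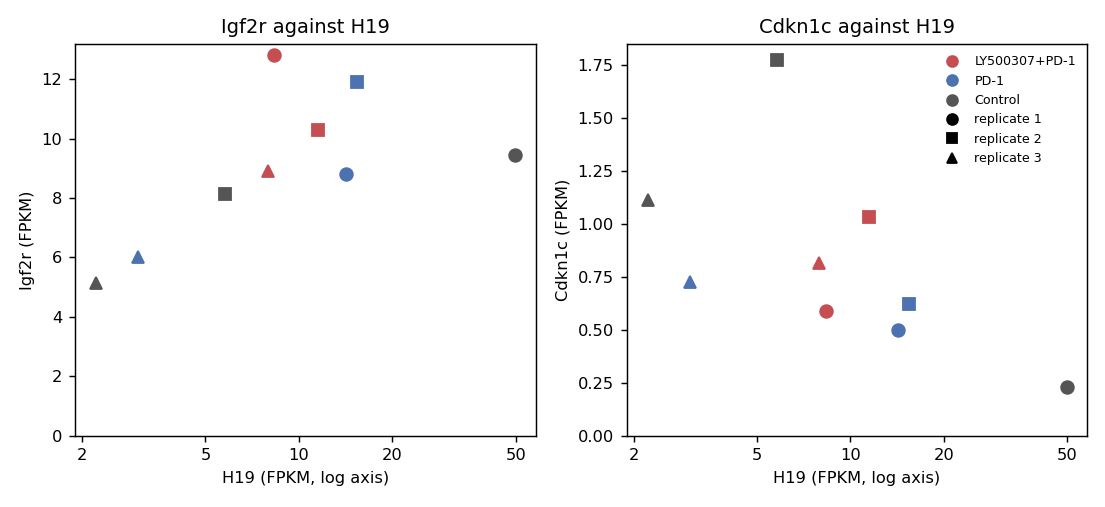
Igf2r (left) and Cdkn1c (right) in FPKM against H19 in FPKM on a log axis, with 1 point per library, groups by colour and replicates by symbol. Igf2r is lowest in the 2 libraries with the least H19, and Cdkn1c is lowest, at 0.232 FPKM, in the library with the most.

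The wider set of 45 other imprinted genes gave 15 tested genes, and 30 were below the filter. In LY500307+PD-1 against Control, 11 were lower and 4 higher, with a median log2 fold change of -0.07 against 0.00 over all genes tested, and 0 passed limma's adjusted threshold. In LY500307+PD-1 against PD-1, 9 were lower and 6 higher (median -0.04, all genes 0.00), and in PD-1 against Control 7 were lower and 8 higher (median 0.00, all genes -0.01). Against Control, the LY500307+PD-1 split was 8 lower and 6 higher without Control replicate 1, and 13 lower and 1 higher without LY500307+PD-1 replicate 2. Against PD-1, the LY500307+PD-1 split was 7 lower and 8 higher without LY500307+PD-1 replicate 3, and 12 lower and 2 higher without LY500307+PD-1 replicate 2. The split in PD-1 against Control moved to 3 lower without Control replicate 1 and to 11 lower without Control replicate 2. Slc22a18, a transporter that neighbours Cdkn1c on chromosome 7, had the smallest p on the lower side in both comparisons of LY500307+PD-1. It stood at 6.72, 7.11 and 7.66 FPKM in LY500307+PD-1, 10.3, 10.2 and 9.26 FPKM in PD-1 and 14.8, 7.64 and 9.85 FPKM in Control. All LY500307+PD-1 libraries were below all PD-1 libraries, with a log2 fold change of -0.42 (SE 0.20, limma adjusted p = 1). Against Control it was -0.48 (SE 0.20, limma adjusted p = 1), with groups that overlap. Kcnq1, a potassium channel of the same domain, stood at 0.735 ± 0.0799 FPKM in PD-1 and 1.20 ± 0.269 FPKM in Control (SD, n = 3 each), a log2 fold change of -0.33 (SE 0.20). Slc22a18 was the 1 of 15 tested genes whose groups do not overlap in LY500307+PD-1 against PD-1 (all genes 7.6%). Kcnq1 was the 1 of 15 in PD-1 against Control (all genes 6.68%), and the count was 0 of 15 in LY500307+PD-1 against Control (all genes 7.94%). These counts are near the shares of all genes. On the higher side the smallest p belonged to Osbpl5 in LY500307+PD-1 against PD-1 (0.06, SE 0.13), Asb4 in LY500307+PD-1 against Control (0.09, SE 0.16) and Mcts2 in PD-1 against Control (0.16, SE 0.23).

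Among 28 genes of IGF signalling, 18 were tested. In LY500307+PD-1 against Control 14 were lower and 4 higher (median log2 fold change -0.12, all genes 0.00), in LY500307+PD-1 against PD-1 12 were lower and 6 higher (median -0.06, all genes 0.00), and in PD-1 against Control 12 were lower and 6 higher (median -0.08, all genes -0.01). None of the 18 passed limma's adjusted threshold. Without PD-1 replicate 2, 9 were lower and 9 higher in LY500307+PD-1 against PD-1, and without Control replicate 1, 10 were lower and 8 higher in LY500307+PD-1 against Control. Igfbp3, a secreted protein that binds IGFs, had the smallest p. It stood at 34.4, 61.7 and 55.0 FPKM in LY500307+PD-1, 79.3, 68.6 and 110 FPKM in PD-1 and 124, 85.7 and 84.5 FPKM in Control. Every LY500307+PD-1 library was below every library of both other groups. The log2 fold change was -0.96 (SE 0.26, unadjusted p = 0.00468, limma adjusted p = 1) against Control and -0.77 (SE 0.26, unadjusted p = 0.0152, limma adjusted p = 1) against PD-1.

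Igfbp7 and the kinase gene Akt2, singled out after their values were seen, were the other genes of the list whose groups do not overlap in LY500307+PD-1 against Control. With Igfbp3 these are 3 of 18 genes there, where the share of all genes was 7.94%, and the count was 1 of 18 in LY500307+PD-1 against PD-1 (all genes 7.6%) and 0 of 18 in PD-1 against Control (all genes 6.68%). Igfbp7, an IGF-binding protein abundant in vessels, stood at 185, 268 and 216 FPKM in LY500307+PD-1, 277, 242 and 317 FPKM in PD-1 and 333, 301 and 341 FPKM in Control, a log2 fold change of -0.56 (SE 0.15, limma adjusted p = 1) against Control. Akt2 averaged 7.37 ± 1.57 FPKM in LY500307+PD-1 and 14.9 ± 2.09 FPKM in Control (SD, n = 3 each), a log2 fold change of -0.94 (SE 0.32, limma adjusted p = 1). In PD-1 against Control Akt2 had the smallest p on the lower side (-0.72, SE 0.32, limma adjusted p = 1). Akt2 held 7.01, 15.9 and 5.56 FPKM in PD-1, 5.72 to 8.83 FPKM in LY500307+PD-1 and 13.4 to 17.3 FPKM in Control. No library lay between 8.83 and 13.4 FPKM, and PD-1 replicate 2 was inside the Control range, so these groups overlap. The 8 endothelial markers summed to 41.5, 46.6 and 35.6 FPKM in LY500307+PD-1, 62.9, 47.3 and 65.2 FPKM in PD-1 and 83.2, 54.8 and 64.0 FPKM in Control. The sum in LY500307+PD-1 was below that in both other groups, by a narrow margin from PD-1. Of the 7 endothelial markers tested, all 7 had a log2 fold change below 0 in LY500307+PD-1 against PD-1, 3 of them with groups that do not overlap, and all 7 against Control, 4 of them with groups that do not overlap. The part of endothelial cells in the levels of Igfbp3 and Igfbp7 was not tested.

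The receptors and ligand of IGF signalling showed other patterns. Igf1r, the receptor that transmits the IGF signal, stood at 6.15, 6.02 and 6.13 FPKM in LY500307+PD-1, 6.84, 6.02 and 5.89 FPKM in PD-1 and 7.49, 6.94 and 5.99 FPKM in Control. The ligand Igf1 was at 0.59 to 1.28 FPKM over the 9 libraries, above Igf2 in each. Insr, the insulin receptor, had the smallest p on the higher side in LY500307+PD-1 against Control (0.43, SE 0.74, limma adjusted p = 1). It held 0.92, 5.5 and 6.28 FPKM in LY500307+PD-1, 0.804, 6.32 and 0.973 FPKM in PD-1 and 1.03, 1.39 and 6.71 FPKM in Control. Each group held libraries near 1 FPKM and libraries near 6 FPKM, with none between 1.39 and 5.5 FPKM. On the higher side the smallest p belonged to Igf2bp2, an RNA-binding protein, in LY500307+PD-1 against PD-1 (0.22, SE 0.18) and to Igfbp2 in PD-1 against Control (0.37, SE 0.49).

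Of 16 genes that set or keep imprints, 11 were tested and 0 passed limma's adjusted threshold in any comparison. In LY500307+PD-1 against Control 6 were lower and 5 higher, in LY500307+PD-1 against PD-1 5 were lower and 6 higher, and in PD-1 against Control 6 were lower and 5 higher. The count lower in LY500307+PD-1 against PD-1 was 2 of 10 without LY500307+PD-1 replicate 2, 3 of 10 without PD-1 replicate 3 and 7 of 11 without LY500307+PD-1 replicate 3. The count in LY500307+PD-1 against Control was 4 of 10 without LY500307+PD-1 replicate 2. Ctcf, the insulator factor of the H19 and Igf2 domain, stood at 11.7, 13.7 and 12.8 FPKM in LY500307+PD-1, 11.5, 13 and 11.8 FPKM in PD-1 and 13.4, 13.6 and 14.5 FPKM in Control. All PD-1 libraries were below all Control libraries, with a log2 fold change of -0.18 (SE 0.10, limma adjusted p = 1). Ctcf was the 1 of 11 tested genes whose groups do not overlap in PD-1 against Control, where the share of all genes was 6.68%. The count was 0 of 11 in LY500307+PD-1 against PD-1 (all genes 7.6%) and in LY500307+PD-1 against Control (all genes 7.94%). Dnmt1, the methyltransferase that copies methylation at replication, had the smallest p on the higher side in both comparisons of LY500307+PD-1. It stood at 21.1, 24.9 and 16.3 FPKM in LY500307+PD-1, 13, 20.5 and 13.4 FPKM in PD-1 and 17.0, 19.2 and 15.0 FPKM in Control. The log2 fold changes were 0.40 (SE 0.20) against PD-1 and 0.25 (SE 0.20) against Control, with groups that overlap. Other genes named by the smallest p were Atrx (-0.14, SE 0.13) in LY500307+PD-1 against PD-1 and Smchd1 (0.19, SE 0.18) in PD-1 against Control.

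**Figure D5:**
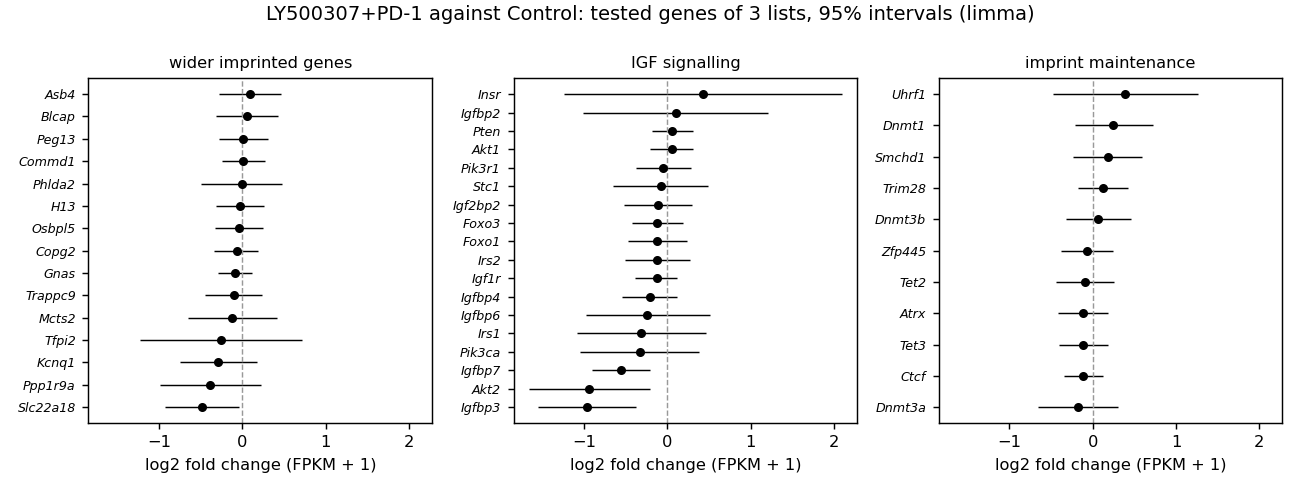
Log2 fold change of FPKM + 1 in LY500307+PD-1 against Control, with 95% intervals from limma, for the tested genes of 3 lists (15 wider imprinted genes, 18 of IGF signalling, 11 of imprint maintenance). Igfbp3 (-0.96), Akt2 (-0.94), Igfbp7 (-0.56) and Slc22a18 (-0.48) have intervals below 0, and 0 of the genes passed the adjusted threshold.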

How the data were processed

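The 9 libraries were grouped by sample title, although the treatment field reads PD-2 and PD-3 for PD-1 replicates 2 and 3. Per the labels' protocols, Trizol RNA without ribosomal RNA went into stranded total RNA libraries. The authors deposited 1 table that states no unit, and its values were taken as FPKM from their range and steps. CASAVA 1.8, Bowtie2, DESeq2 and mm9 appear in the submitters' processing notes without a role. How fragments were counted, and whether by strand, is not given in the sources used here. Symbols and positions come from GENCODE M21 (GRCm38), matched by unversioned identifier for 99.7% of the table.

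Between 26.4% and 29.2% of low values per library fell within 0.02 of a whole step, so reads were not recovered and no count test was run. The 13990 genes that reached 1 FPKM in 3 or more libraries were fitted as log2(FPKM + 1), a scale that understates changes of low genes. The fit used limma 3.58.1 in R 4.3.3 on all 9 libraries, with trend and robust moderation and Benjamini-Hochberg adjustment, and was tested on simulated data. Exact permutations for gene pairs used Python 3.11.15 and scipy 1.17.1. From each of 3 lists (45 imprinted, 28 IGF signalling and 16 imprint maintenance genes) the tested gene with the smallest p in each direction was named, as were the 5 genes most like H19 and most like Igf2. The members, lists and rules were chosen with earlier results of these data known. Alternatives were quantile normalization, no filter, a pseudocount of 0.1, fits limited to the 6 libraries of a comparison, a replicate block and leaving out each library.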

Additional observations from a re-analysis of the deposited data

How the results depend on the processing

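In each of the 3 comparisons, 0 genes passed limma's adjusted p under 0.05 with quantile normalization, with no filter on low values, with a pseudocount of 0.1, with only the 6 libraries compared and with the replicate number as a block. When 1 library was left out, 0 to 2 genes passed in LY500307+PD-1 against PD-1 (2 without PD-1 replicate 1, and 1 when PD-1 replicate 3 or LY500307+PD-1 replicate 2 was left out). In LY500307+PD-1 against Control 0 to 2 passed (2 without LY500307+PD-1 replicate 2 or Control replicate 2, 1 without Control replicate 1). In PD-1 against Control 0 to 1 passed (1 without PD-1 replicate 1, PD-1 replicate 3 or Control replicate 1). The number at an unadjusted p under 0.05 ran over the 11 alternatives from 295 to 900, 435 to 1087 and 311 to 737 in the same order of comparisons. The labels give no pairing, so the replicate numbers were not taken to pair libraries. Deviations of libraries with the same number had correlations of -0.12 to 0.27 (median 0.09), and those with different numbers -0.36 to 0.26 (median -0.02). With the replicate number as a block, 533, 701 and 402 genes had an unadjusted limma p under 0.05, in the same order of comparisons. Without the block these counts were 398, 561 and 342. Directions turned when 1 library was left out for Meg3 in LY500307+PD-1 against PD-1 (-0.27 to 0.26), LY500307+PD-1 against Control (-0.38 to 0.05) and PD-1 against Control (-0.36 to 0.18). They also turned in PD-1 against Control for Igf2r (-0.02 to 0.43) and Mest (-0.32 to 0.08), and in all 3 comparisons for H19. The cause was not tested. With a pseudocount of 0.1, H19 had a log2 fold change of 0.07 for LY500307+PD-1 against Control and 0.01 for PD-1 against Control, the opposite sign to that with a pseudocount of 1. Cdkn1c fell below the filter when some libraries were left out, and then has no value. Leaving out libraries for the lists' counts was chosen after seeing the data. Igf2, Dlk1, Peg3, Plagl1 and Grb10 did not pass the filter on low values and have no test.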
